A study of Saccharomyces cerevisiae with 9 samples.

Results

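Growth of yeast deletion strains under arsenite was compared between a pool that also lacked the prefoldin gene PFD1, exposed to 5 µM sodium arsenite, and a pool of plain haploid strains, exposed to 800 µM. Each pool and dose was measured on 1 array, and 3943 strains had a value on both arrays. Of these, 507 lay past the threshold used here on at least 1 of the arrays and are described below. They comprised 51 strains low on both arrays, 60 high on both, 57 low on the pfd1 array only, 187 low on the 800 µM array only, 89 high on the pfd1 array only, 53 high on the 800 µM array only and 10 past the thresholds on opposite sides. The other 3436 strains stayed inside both thresholds. The whole series of 9 arrays held values for 5101 strains, of which 4612 had one on the pfd1 array and 3956 on the 800 µM array.

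Both pools were MATa haploid progeny of the pooled heterozygous diploid yeast knockout collection, in which every strain carries kanMX in place of 1 gene and is marked by short DNA tags. The diploid parent was of the BY4743 background, with ura3delta0, leu2delta and his3delta1 on both chromosome sets, lys2delta0/LYS2 and met15delta0/MET15, and a can1delta::LEU2-MFA1pr-HIS3 reporter over CAN1, the "Magic Marker" that lets MATa haploids grow on selective plates. For the pfd1 pool, the diploids were transformed together with pfd1::TEF1pr-URA3 before they were sporulated, and the PFD1 null mutation was present in both the arsenite and the control culture. Its arsenite plates contained 5 µM sodium arsenite and lacked uracil, whereas its control plates contained uracil and no arsenite. The plain haploid pool carried no pfd1 mutation beyond that of its own PFD1 deletion strain, and its plates contained 800 µM or no sodium arsenite. All cells were grown at 30 °C until the plates were covered, and both cultures of an array came from the same starting cells. Tags amplified from genomic DNA of the control culture carried Cy5 and those of the arsenite culture Cy3, with no dye swap labelled. PFD1 genotype, arsenite dose and the uracil content of the medium all differ between the arrays, so their contributions cannot be told apart.

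Prefoldin is a hexameric chaperone of the cytosol that receives newly made actin and tubulin chains and passes them to the CCT chaperonin, in which they fold. Yeast without prefoldin is viable, with weakened microtubules and sensitivity to drugs that depolymerise them, and PFD1 encodes 1 of its subunits. Arsenite enters yeast through the aquaglyceroporin Fps1 and leaves through the exporter Acr3, also called Arr3, and CCT is among the proteins whose function arsenite is known to disturb.

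The value of a strain was the mean of the log ratios of its annotated tags, turned so that a negative value means fewer cells in the arsenite culture, and given relative to the median strain of the array. That direction is likely rather than stated: strains unable to make uracil were low on the pfd1 array, whose arsenite medium lacks it, and the log ratios were read as log2. Whether a strain stood on the same side on both arrays does not depend on the sign. A strain was called low or high at 3 robust standard deviations from the array median, which is a log2 ratio of -1.60 or 1.60 on the pfd1 array and -2.13 or 2.13 on the 800 µM array. With 1 array per pool and dose there was no replicate of either, so no difference between the arrays could be tested, and "only" below states the side of a threshold and nothing more. The difference between a strain's 2 tags gave an error of 0.302 log2 for a 2-tag mean on the pfd1 array and 0.208 log2 on the 800 µM array, or 0.427 and 0.294 log2 for 1 tag. These errors do not cover differences between cultures. On at least 1 of the arrays, 1720 of the 3943 strains had 1 tag, which is not stated for every strain named below. The 2 tags of a strain correlated at r = 0.687 on the pfd1 array (2978 strains) and at r = 0.881 on the 800 µM array (2221 strains), which describes the tags and is no replicate of the culture.

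Low strains made up 2.82% of the 3943 on the pfd1 array (111 strains) and 6.21% on the 800 µM array (245 strains). High strains made up 3.96% on the pfd1 array (156 strains) and 2.94% on the 800 µM array (116 strains). The 51 strains low on both arrays were 1.29% of all strains, 45.9% of those low on the pfd1 array and 20.8% of those low on the 800 µM array. The 60 strains high on both were 1.52% of all strains, 38.5% of those high on the pfd1 array and 51.7% of those high on the 800 µM array. Over all 3943 strains the scaled values of both arrays had a Pearson correlation of 0.426 and a Spearman correlation of 0.368, where a strain's tags and probes are shared by both values. The same Pearson correlation of the pfd1 array was 0.181 with the haploid array without arsenite (3886 strains) and 0.197 at 100 µM (4061 strains). It was 0.217 at 200 µM (4131 strains), 0.306 at 400 µM (4096 strains) and 0.253 at 1600 µM (2508 strains). On these arrays, in the same order, the tags of a strain correlated at r = 0.145, 0.336, 0.516, 0.713 and 0.855. As the agreement of tags differs between the arrays, these correlations do not rank the doses by likeness to the pfd1 array.

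**Figure D1:**
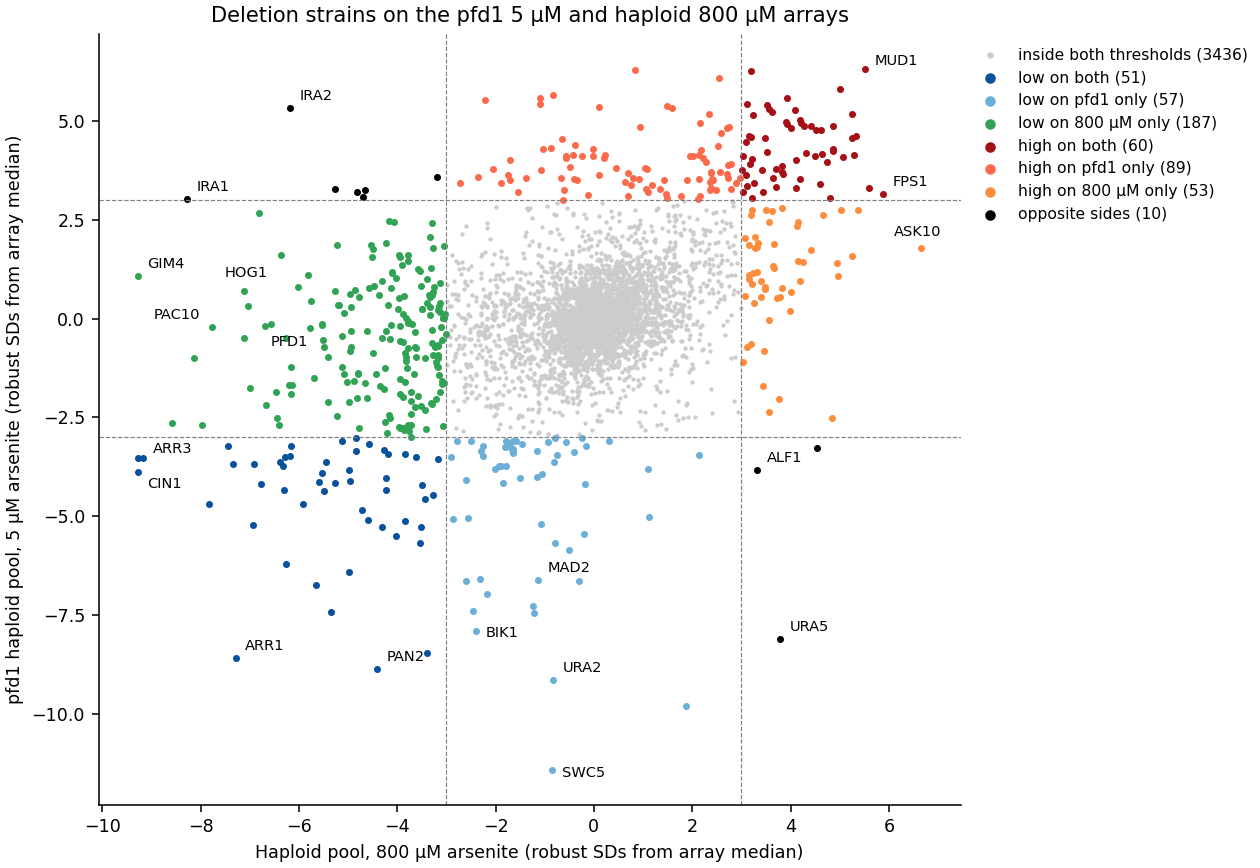
Each point is 1 of 3943 deletion strains, with its value on the 800 µM haploid array on the horizontal axis and on the pfd1 5 µM array on the vertical axis, in robust standard deviations from the array median. Dashed lines mark the thresholds at 3 and -3. The prefoldin strains GIM4, PAC10 and PFD1 lie far to the left near 0 on the vertical axis, IRA1 and IRA2 lie at the upper left, and URA5 at the lower right.

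The strains at the edges show how thin the lines between the classes are. On the pfd1 array MSN1, ATG27 and UBA2 stood just inside the low threshold at -1.61, -1.61 and -1.62 log2, and CUS1, IWR1 and LCD1 just outside at -1.60, -1.57 and -1.56. On the 800 µM array RAD54, MRPL4 and ATG8 stood just inside at -2.14, -2.15 and -2.17 log2, and HEM14, RTT101 and ABD1 just outside, all at -2.13. Many strains that were past a threshold on 1 array leaned the same way on the other. Of the 57 strains low on the pfd1 array only, 52 were also below the median at 800 µM, 15 of them beyond 2 robust standard deviations, and their median there was -1.07 log2. Of the 187 strains low at 800 µM only, 116 were below and 71 above the median on the pfd1 array, and 89 were within 1 robust standard deviation of it. Their median on the pfd1 array was -0.28 log2. Of the 89 strains high on the pfd1 array only, 58 were above the median at 800 µM, and of the 53 strains high at 800 µM only, 44 were above it on the pfd1 array.

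The prefoldin strains themselves were near the median in the pfd1 pool and low at 800 µM. Deletion of PFD1 gave -0.11 log2 on the pfd1 array and -4.76 log2 at 800 µM, with single tags at -0.43 and 0.21 on the pfd1 array and at -4.47 and -5.05 at 800 µM. By the labels, the PFD1 null mutation was present in both cultures of the pfd1 pool. The tagged deletion and the added mutation concern the same gene, so what the PFD1 tags report in that pool is uncertain and was not tested. The other subunits showed the same pattern of values. GIM4 gave 0.57 log2 on the pfd1 array and -6.60 at 800 µM, PAC10 gave -0.12 and -5.53, GIM5 gave -0.26 and -5.07, GIM3 gave -0.26 and -4.46, and YKE2 gave -0.16 and -3.51. All 6 prefoldin strains were thus low at 800 µM and none was low in the pfd1 pool, with list medians of -0.14 log2 in the pfd1 pool and -4.92 log2 at 800 µM. GIM4 and GIM3 rest on 1 tag on both arrays, and PAC10 and YKE2 on 1 tag at 800 µM. Neighbours of PFD1 were also looked at, as both pools were made by meiosis. The 30 measured strains within 20 genes on either side of PFD1 had a median of -0.04 log2 on the pfd1 array and of -0.04 log2 at 800 µM. Within 5 genes, 8 strains had medians of -0.45 and -0.47 log2, with 2 of them low on the pfd1 array and 1 at 800 µM.

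Downstream of prefoldin, strains of the tubulin folding pathway were low in both pools or in 1 of them, and 1 lay on opposite sides. CIN1, which encodes tubulin folding cofactor D, gave -2.07 log2 on the pfd1 array and -6.60 at 800 µM. RBL2, which encodes the β-tubulin-binding cofactor A, gave -3.31 and -4.46 log2, from 1 tag on each array. CIN2, cofactor C, gave -1.41 log2 on the pfd1 array, short of the threshold, and -6.11 at 800 µM, and TUB3, the minor α-tubulin, gave -1.44 and -5.67 log2. CIN4, a small GTPase of the same pathway, had the reverse order, with -3.95 log2 on the pfd1 array and -1.75 at 800 µM. ALF1, which encodes the α-tubulin-binding cofactor B, gave -2.04 log2 on the pfd1 array and 2.36 log2 at 800 µM, with both tags on the same side on each array (-2.28 and -1.81 on the pfd1 array, 2.80 and 1.92 at 800 µM). ALF1 also stood at 0.99 log2 on the haploid array without arsenite, past that array's threshold, from 1 tag. In all, 4 of 6 tubulin strains were low on the pfd1 array, and at 800 µM 4 were low and 1 high. The list medians were -2.06 log2 on the pfd1 array and -5.07 log2 at 800 µM, whereas the median of all strains is 0 on each array. Of CCT itself, made of essential subunits, the tags of CCT2 and CCT5 were measured on both arrays, at -0.61 and 0.62 log2 in the pfd1 pool and at -0.34 and -1.05 log2 at 800 µM. What a tag of an essential gene reports in a haploid pool is uncertain, because such a haploid should not grow, and the class counts hold such strains. Among them are ERG11, GSP1, LSM4, UBA2 and UFE1, low on both arrays, and CEG1, ORC5, PCF11, TUB4 and UBC9, low at 800 µM only.

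**Figure D2:**
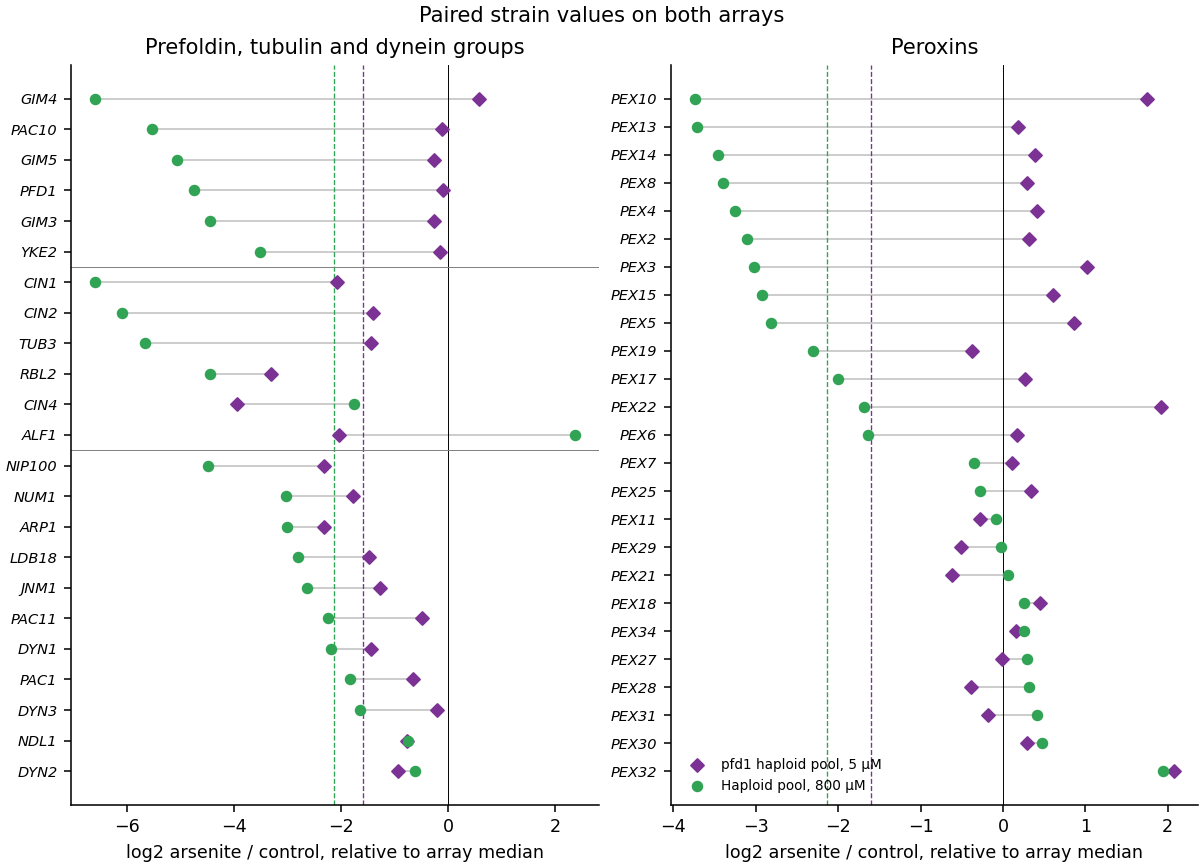
Each line joins the log2 value of a strain on the pfd1 5 µM array (diamond) to its value on the haploid 800 µM array (circle), for the prefoldin, tubulin and dynein groups (left, divided by horizontal lines) and for the peroxins, chosen after their values were seen (right); dashed lines in the same colours mark the low thresholds of -1.60 and -2.13 log2. The 6 prefoldin diamonds lie between -0.26 and 0.57 and their circles between -6.60 and -3.51, while CIN4 and ALF1 are the tubulin strains whose diamonds lie left of their circles.

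Motor and spindle-positioning strains were low on both arrays in some cases and at 800 µM only in others. Dynein and dynactin pull the spindle into the bud neck. Of their 11 measured strains, 3 were low on the pfd1 array and 7 at 800 µM, with medians of -1.28 and -2.25 log2. NIP100, the dynactin subunit related to p150-Glued, gave -2.32 log2 on the pfd1 array and -4.49 at 800 µM. ARP1, the actin-related core of dynactin, gave -2.32 and -3.0 log2, and NUM1, the cortical anchor of dynein, gave -1.78 and -3.04 log2. The strains low at 800 µM but inside the threshold in the pfd1 pool were LDB18, JNM1, PAC11 and DYN1, between -1.48 and -0.50 log2 on the pfd1 array. At microtubule plus ends, BIK1, the yeast CLIP-170, gave -4.21 log2 on the pfd1 array and -1.71 at 800 µM, and BIM1, the yeast EB1, gave -2.32 and -3.90 log2. KAR3, a minus-end-directed kinesin, gave -1.99 and -1.38 log2, with single tags on the pfd1 array at -1.12 and -2.86. Of the 12 strains on this list, 3 were low on the pfd1 array and 2 at 800 µM.

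Several checkpoint and kinetochore strains were low on the pfd1 array and inside the threshold at 800 µM: MAD1, MAD2, BFA1, BUB2, MCM21, CTF19 and CTF3. The spindle assembly checkpoint holds cells in mitosis until every kinetochore is attached to microtubules. MAD2 gave -3.53 log2 on the pfd1 array and -0.81 at 800 µM, and MAD1, its partner, gave -2.90 and -0.14 log2. Both tags of each strain were past the threshold in the pfd1 pool. MAD3 gave -1.26 log2 on the pfd1 array, inside the threshold, and 0.38 at 800 µM. BUB1 of the same checkpoint, measured on the pfd1 array alone, stood at 0.22 log2. Only 3 of the 6 genes on the checkpoint list had a value on both arrays. BFA1 and BUB2 encode the GTPase-activating complex that holds back mitotic exit while the spindle is misplaced. They gave -2.67 and -2.24 log2 on the pfd1 array and 0.81 and -0.13 log2 at 800 µM. BUB2 rests on 1 tag on each array, and the BFA1 tags at 800 µM were apart, at 1.69 and -0.08. LTE1, which promotes mitotic exit, was low on both, at -2.50 and -5.57 log2. The Ctf19 complex links centromeric nucleosomes to the outer kinetochore. Its strains MCM21, CTF19 and CTF3 were low on the pfd1 array at -2.22, -1.94 and -1.80 log2. Their values at 800 µM were -1.31, -0.57 and -1.18 log2, and MCM21 rests on 1 tag on each array. None of the 11 Ctf19 strains was low at 800 µM. The list medians were -1.22 log2 on the pfd1 array and -0.80 log2 at 800 µM. The actin list, the other main client of prefoldin, had 3 of 18 strains low on each array. ARC18, a subunit of the Arp2/3 complex, was low on both at -2.09 and -3.94 log2, with pfd1 tags at -0.83 and -3.35, and RVS161, an amphiphysin of endocytic membranes, gave -3.12 log2 on the pfd1 array and -0.36 at 800 µM. END3, an endocytic adaptor, gave -1.99 and -1.34 log2, but its pfd1 tags were -0.20 and -3.79, so that 1 tag carries the low value.

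**Figure D3:**
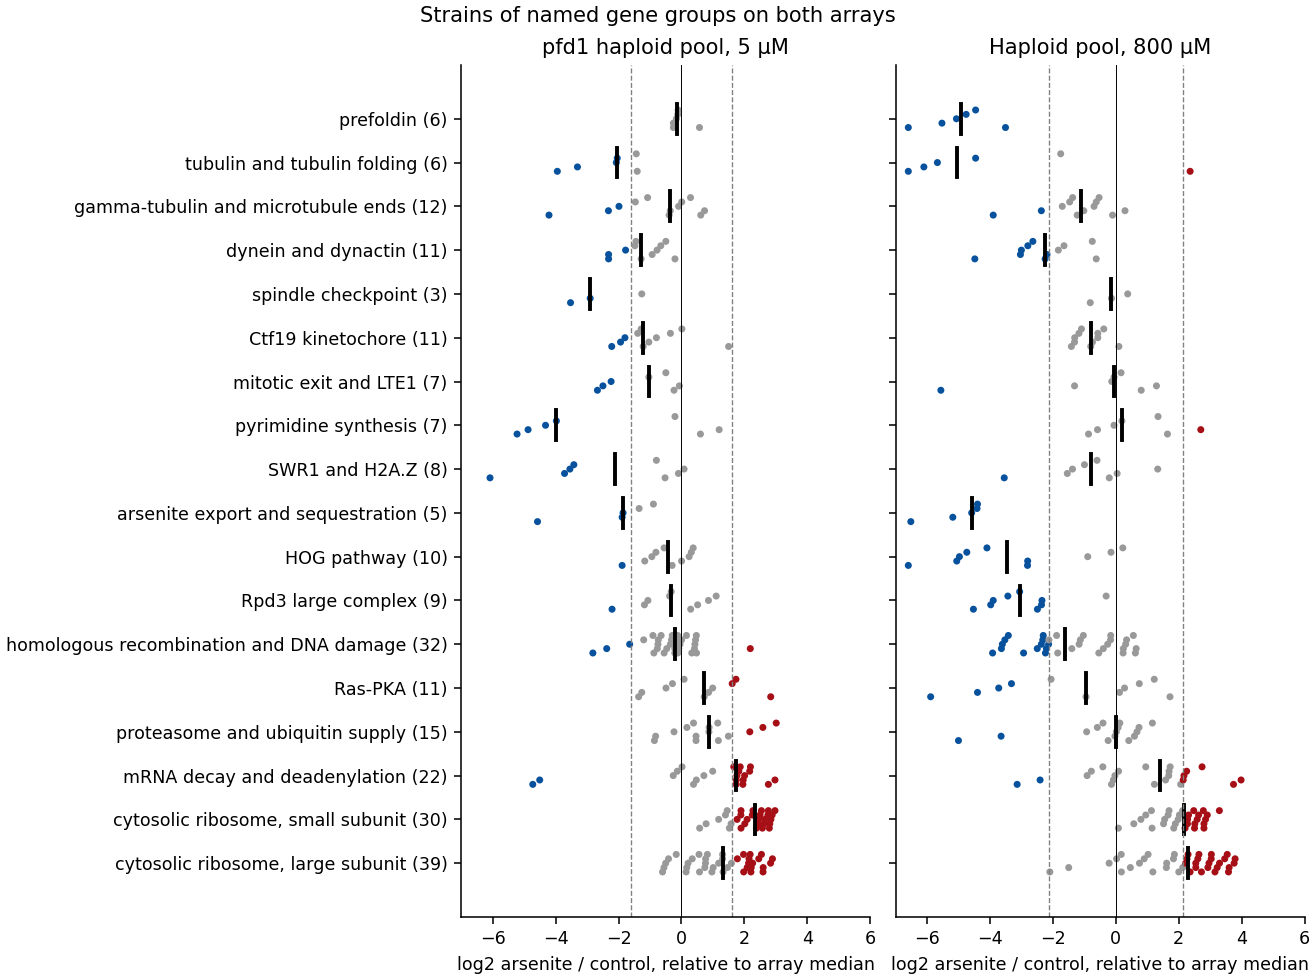
Each point is a strain of the named group, with the number of strains on both arrays in brackets, placed by its log2 value on the pfd1 5 µM array (left) or the haploid 800 µM array (right); blue points are low, red points high, black bars are group medians and dashed lines are the thresholds. The prefoldin median lies at -0.14 on the left and -4.92 on the right, while the spindle checkpoint median lies at -2.90 on the left and -0.14 on the right.

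The strains named here that handle arsenite itself stood on the same side of the median in both pools. ARR1, the transcription factor that switches on the exporter, gave -4.58 log2 on the pfd1 array and -5.18 at 800 µM, with single tags at -5.66 and -3.50 on the pfd1 array and at -7.14 and -3.23 at 800 µM. On the scale of robust standard deviations ARR1 stood at -8.58 on the pfd1 array and -7.29 at 800 µM. ARR3, the exporter, gave -1.89 and -6.52 log2. YAP1, a transcription factor of the oxidative and metal stress response, gave -1.86 and -4.40 log2, from 1 tag on each array. ARR2, the arsenate reductase, gave -1.35 and -4.58 log2, and YCF1, a vacuolar pump for glutathione-bound arsenic, gave -0.89 and -4.42 log2, both inside the threshold in the pfd1 pool. So 3 of 5 were low on the pfd1 array and 5 of 5 at 800 µM, with medians of -1.86 and -4.59 log2. On the side of entry, FPS1 gave 1.68 log2 on the pfd1 array and 4.18 at 800 µM. ASK10, a regulator that opens Fps1, gave 0.95 and 4.74 log2, from 1 tag on each array. Of the 3 strains on the entry list, 1 was high on the pfd1 array and 2 at 800 µM, and the remaining strain was past no threshold. The doses differ, so these values are set side by side and not as a difference in sensitivity.

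Strains of the HOG pathway, the osmotic stress kinase cascade that also restrains Fps1, were low at 800 µM in 7 of 10 cases and on the pfd1 array in 1. HOG1, the kinase, gave 0.37 log2 on the pfd1 array and -5.06 at 800 µM. PBS2, its activating kinase, gave -1.17 and -4.74 log2, SSK2 gave -0.94 and -4.97 log2, and STE50 gave 0.24 and -4.10 log2. SSK1, the response regulator, was the strain low on both, at -1.89 and -6.60 log2 from 1 tag on each array. The list medians were -0.43 log2 on the pfd1 array and -3.46 log2 at 800 µM. The Rpd3 large complex, a histone deacetylase, had a similar pattern, with 8 of 9 strains low at 800 µM and 1 of 9, RPD3 itself, on the pfd1 array. RPD3 gave -2.21 log2 on the pfd1 array and -3.98 at 800 µM, from 1 tag on each. SIN3 gave -1.07 and -3.44, and RXT3 gave 0.86 and -4.53. For recombination and DNA damage genes, 3 of 32 strains were low on the pfd1 array and 13 at 800 µM. RAD50, MRE11 and XRS2, whose products bind double-strand breaks together, gave -0.29, -0.65 and 0.41 log2 on the pfd1 array and -3.92, -3.64 and -2.94 log2 at 800 µM. DCC1 and CTF8, of the clamp loader that supports sister chromatid cohesion, were low on both arrays at -2.82 and -2.38 log2 in the pfd1 pool and at -2.50 and -2.33 log2 at 800 µM, whereas CTF18 of the same clamp loader, measured on the pfd1 array alone, stood at 0.02 log2. The other strain of the list low on the pfd1 array was TOF1, a replication fork protein, at -1.65 log2 there and -1.17 at 800 µM, and RAD6 was high there.

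For ergosterol, ESCRT and mitochondrial ribosome strains, the counts are to be read beside the 2.82% of all strains that were low on the pfd1 array and the 6.21% at 800 µM. On the ergosterol list 1 of 10 strains was low on the pfd1 array and 5 at 800 µM. ERG6, a methyltransferase late in the pathway, was low on both at -1.96 and -5.22 log2, from 1 tag on each array. ERG2, the sterol isomerase, gave -0.52 and -3.85 log2. Of the ESCRT machinery, which sorts ubiquitinated membrane proteins into vacuolar vesicles, 1 of 14 strains was low on the pfd1 array and 6 at 800 µM. STP22 was the one of these 14 low on the pfd1 array, at -1.86 log2, and gave -1.60 log2 at 800 µM. SNF7 of the same machinery, measured on the pfd1 array alone, was also low there, at -1.66 log2. On the mitochondrial ribosome list, 0 of 48 strains were low on the pfd1 array and 6 at 800 µM, with medians of -0.05 and -1.32 log2. UBI4, the stress-induced polyubiquitin gene, gave 0.17 log2 on the pfd1 array and -5.00 at 800 µM, and RPN4, the activator of proteasome genes, gave -0.24 and -3.65. Among strains near the median on the pfd1 array with 2 tags on each array, the lowest at 800 µM after GIM5, UBI4 and PFD1 were SEA4 at -4.67 log2, a subunit of the SEA complex that acts on TORC1, and SGF29 at -4.11 log2, a subunit of the SAGA acetyltransferase; on the pfd1 array they gave -0.07 and -0.12 log2.

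Of the strains low on the pfd1 array and inside the threshold at 800 µM, those of the uracil pathway had some of the lowest values. The arsenite medium of that array lacks uracil and its control medium contains it. URA1, URA2 and URA4 encode enzymes of de novo pyrimidine synthesis. They gave -5.23, -4.88 and -3.98 log2 on the pfd1 array and 1.34, -0.58 and -0.87 log2 at 800 µM. URA1 and URA4 rest on 1 tag on each array. URA5, which encodes the main orotate phosphoribosyltransferase, gave -4.32 and 2.70 log2, on opposite sides, with its pfd1 tags at -2.34 and -6.31 and 1 tag at 800 µM. The paralogue URA10 gave -0.21 and 0.19 log2, and URA7 and URA8, the CTP synthases, gave 1.20 and 0.60 log2 on the pfd1 array and 1.64 and -0.06 log2 at 800 µM. None of the 5 measured strains for pyrimidine salvage and uptake was past a threshold on either array. FUR4, the uracil permease, had a value on the pfd1 array alone, of 1.75 log2, past the high threshold. For these strains in particular, arsenite and the lack of uracil cannot be told apart.

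Strains of the SWR1 complex, which places the histone variant H2A.Z into nucleosomes, were low on the pfd1 array in 4 of 8 cases and at 800 µM in 1. SWC5 had the lowest value of all 3943 strains on the pfd1 array, -6.09 log2, and gave -0.60 log2 at 800 µM, from 1 tag on each. HTZ1, H2A.Z itself, gave -3.72 and -1.54 log2, with pfd1 tags at -5.03 and -2.41. YAF9, shared with the NuA4 acetyltransferase, gave -3.55 and -0.21 log2, from 1 tag on each array. SWR1, the catalytic ATPase, was low on both at -3.42 and -3.55 log2, with 1 tag at 800 µM. ARP6, SWC3, SWC7 and BDF1 lay between -0.80 and 0.08 log2 on the pfd1 array, inside the threshold. VPS71 of the same list, measured on the pfd1 array alone, stood at -0.16 log2. The list median on the pfd1 array depended on the tag set. It was -3.95 robust standard deviations with all tags (8 strains), -6.42 with the first tag set (6 strains) and -1.01 with the second (4 strains). The tag sets hold different strains.

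Among the strains low on both, several named ones are outside those lists. BMH1, a 14-3-3 protein, gave -3.59 log2 on the pfd1 array and -4.02 at 800 µM. CLA4, a p21-activated kinase of bud growth and cytokinesis, gave -2.79 and -4.94 log2, and SSD1, an RNA-binding protein needed for cell wall integrity, gave -2.50 and -4.21 log2. GCN5, the SAGA acetyltransferase, gave -1.97 and -4.92 log2. MAK10, a subunit of the N-terminal acetyltransferase NatC, gave -1.99 and -4.50 log2. The 10 strains of this class named by the rule had 2 tags on each array, and in the whole class every tag was past the threshold in 21 of the 33 strains with 2 tags on the pfd1 array and in 19 of 23 at 800 µM. MAG1, a DNA glycosylase strain, is a member that was low without arsenite too: it gave -2.72 log2 on the pfd1 array, -3.27 at 800 µM and -3.29 on the haploid array without arsenite. These means rest on 1 of its tags, which stood at -5.17, -6.68 and -6.65 log2, while the other stood at -0.28, 0.15 and 0.06. Altogether, 29 of the 507 strains were past the threshold on a haploid or heterozygous array without arsenite. So were 81 of the 3436 strains inside both thresholds on the pfd1 and 800 µM arrays. On the haploid array without arsenite taken alone, 0.716% of the strains were low and 1.57% high.

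Many of the high strains in both pools lacked a ribosomal protein. On the list of small-subunit ribosomal proteins, 23 of 30 strains were high on the pfd1 array and 15 at 800 µM, with medians of 2.33 and 2.16 log2. On the large-subunit list, 16 of 39 were high on the pfd1 array and 22 at 800 µM, with medians of 1.31 and 2.30 log2. None of the strains on these lists was low on either array. Examples with 2 tags on each array were RPS4B at 2.81 log2 on the pfd1 array and 2.90 at 800 µM, RPS0A at 2.79 and 2.58, RPL34A at 2.60 and 3.04, and RPL8A at 2.26 and 3.46. Many ribosomal proteins have a near-identical paralogue in yeast, and each strain lacks only 1 copy. The tags, not the genes, are measured, so paralogues do not share signal. TMA23, a ribosome biogenesis factor, gave 2.28 and 3.46 log2. TOP1, DNA topoisomerase I, gave 2.43 and 3.73 log2, but stood at 1.95 log2 without arsenite.

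Strains of mRNA decay were also high, in 13 of 22 cases on the pfd1 array and in 6 at 800 µM, with medians of 1.74 and 1.40 log2. NAM7, the yeast Upf1 helicase of nonsense-mediated decay, gave 2.76 log2 on the pfd1 array and 3.74 at 800 µM, and UPF3 gave 1.76 and 3.98 log2. The pfd1 tags of UPF3 were apart, at -0.16 and 3.68, and it had 1 tag at 800 µM. SKI8 and SKI3, of the complex that feeds mRNA to the exosome, gave 2.01 and 2.17 log2 on the pfd1 array and 2.14 and 1.58 log2 at 800 µM. XRN1, the cytoplasmic 5′ exonuclease, gave 2.97 log2 on the pfd1 array and -0.78 at 800 µM, from 1 tag on each. On the same list the deadenylase strains PAN2 and PAN3 were low on both arrays, at -4.73 and -4.51 log2 in the pfd1 pool and at -3.14 and -2.41 log2 at 800 µM. PAN2 rests on 1 tag on each array. PAN3 had pfd1 tags apart, at -2.51 and -6.51, and 1 tag at 800 µM. All members of the list past a threshold on both arrays kept their side.

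Strains high on the pfd1 array and near the median at 800 µM included several of the ubiquitin and proteasome system. RPN10, a ubiquitin receptor of the proteasome, gave 2.59 log2 on the pfd1 array and 0.67 at 800 µM. IRC25 and POC4, partner chaperones of proteasome assembly, gave 2.85 and 2.17 log2 on the pfd1 array and 0.07 and 0.15 log2 at 800 µM. Of the other assembly chaperones, PBA1 gave 0.07 and -2.77 log2, low at 800 µM, and ADD66 gave 1.18 and -0.16 log2. PRE9, the nonessential core subunit, gave 3.01 and -0.59 log2 and DOA1, a ubiquitin-binding partner of Cdc48, gave 2.17 and -0.41 log2, from 1 tag on each array. Of 15 strains on the proteasome and ubiquitin list, 3 were high on the pfd1 array and 0 at 800 µM, where 2, UBI4 and RPN4, were low. BRE5, the cofactor of the deubiquitinase Ubp3, gave 2.20 and -0.30 log2, and RAD6, a ubiquitin-conjugating enzyme, gave 2.19 and -0.17 log2. GCN20 and GCN3, of the pathway that slows translation initiation when amino acids run short, gave 2.21 and 1.94 log2 on the pfd1 array and 0.17 and 0.07 log2 at 800 µM. Of 13 nuclear pore strains, NUP170, NUP120 and POM34 were high on the pfd1 array, between 2.04 and 2.20 log2. They lay between -0.35 and 0.74 log2 at 800 µM. Another 2 strains of this list were low at 800 µM and inside the threshold on the pfd1 array.

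Of the strains high at 800 µM and near the median on the pfd1 array, with 2 tags on each array, the highest was CKB2, a regulatory subunit of casein kinase 2, at 0.11 log2 on the pfd1 array and 2.85 at 800 µM. EAF1, the scaffold of NuA4, gave 0.43 and 2.48 log2. PTP2, a phosphatase that turns off Hog1, gave 0.51 and 2.42 log2, with the opposite side at 800 µM from HOG1 itself. SIF2, a subunit of the Set3 deacetylase complex, gave -0.34 and 2.27 log2. In this class every tag was past the threshold in 21 of the 31 strains with 2 tags at 800 µM.

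Past the thresholds on opposite sides stood 10 strains, 7 of them high in the pfd1 pool and low at 800 µM. Negative regulators of Ras, which hold the growth-promoting cAMP and protein kinase A pathway back, made up 3 of the 7. IRA2, a Ras GTPase-activating protein, gave 2.84 log2 on the pfd1 array and -4.40 at 800 µM, with pfd1 tags at 3.25 and 2.42. IRA1, its paralogue, gave 1.61 and -5.89 log2, with pfd1 tags at 1.46 and 1.76, so that its pfd1 value stood just inside the threshold. GPB2, a kelch protein that acts with Ira1 and Ira2, gave 1.73 and -3.32 log2 from 1 tag on each array. PDE2, the high-affinity cAMP phosphodiesterase, gave 0.99 and -3.73 log2, past the threshold at 800 µM. No strain of the activating side was past a threshold. RAS2 gave -1.26 log2 on the pfd1 array and 0.74 at 800 µM, and GPA2 gave -1.36 and 1.22 log2. RAS1, TPK2 and TPK3 lay between -0.49 and 0.72 log2 on the pfd1 array and between -0.95 and 1.72 log2 at 800 µM, and CYR1, the adenylate cyclase, had 0.24 log2 on the pfd1 array alone. RGS2 of the same list, also measured on the pfd1 array alone, stood at 1.52 log2, inside the threshold. Over the 11 strains of the list, 3 were high on the pfd1 array and 4 low at 800 µM. The strains of the list not named here were past no threshold on either array.

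The remaining members of the opposite class have other roles. ITR1, an inositol transporter, gave 1.70 log2 on the pfd1 array and -3.42 at 800 µM, DEG1, a tRNA pseudouridine synthase, gave 1.64 and -3.34, BCK2, an activator of G1 transcription, gave 1.91 and -2.27, and PEX10, a peroxisomal ubiquitin ligase, gave 1.74 and -3.74. SKY1, a kinase of SR-type proteins, gave -1.75 log2 on the pfd1 array and 3.23 at 800 µM from 1 tag on each. With ALF1 and URA5 it is 1 of the 3 strains that were low in the pfd1 pool and high at 800 µM. On the 800 µM array every tag was past the threshold in 4 of the 5 strains of this class that had 2 tags, and on the pfd1 array in 4 of 8.

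**Figure D4:**
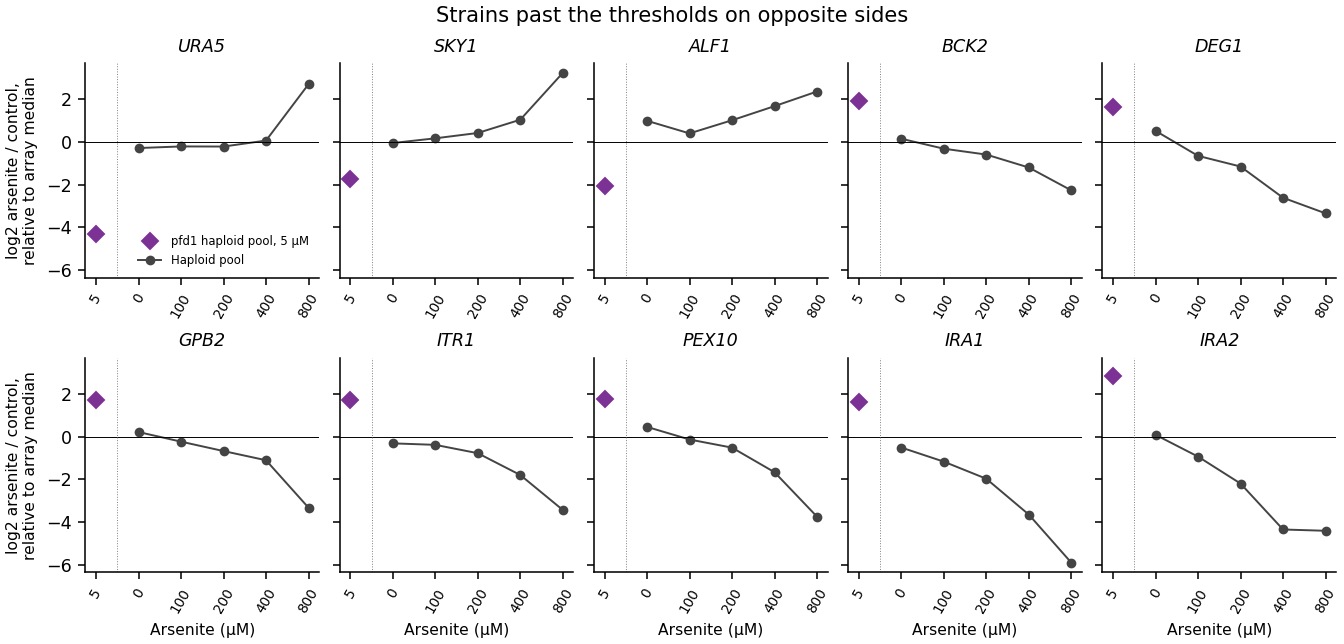
Each panel is 1 of the 10 strains past the thresholds on opposite sides, with its log2 value on the pfd1 5 µM array (diamond) beside its values on the haploid arrays at 0, 100, 200, 400 and 800 µM (circles joined by a line). IRA2 stands at 2.84 on the pfd1 array and at -4.40 at 800 µM, and URA5 at -4.32 and 2.70.

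The haploid arrays at 0, 100, 200 and 400 µM were not used to form the classes and show whether class members also moved at the lower doses. A slope per dose step was fitted for 3776 strains with limma, and at a Benjamini-Hochberg adjusted p of 0.05 over all of them 0.821% had a lower slope (31 strains) and 0.0265% a higher one (1 strain). Among the strains low on both arrays, 9 of 43 tested fell with dose, with a class median of -0.67 log2 per step. Among those low at 800 µM only, 11 of 153 fell (median -0.43), and among those low on the pfd1 array only, 2 of 50 fell (median -0.08), NGG1 and STP22. Of the 84 strains high on the pfd1 array only, SAP155 fell, with a slope of -0.74 log2 per step. Of the 10 strains on opposite sides, IRA2, IRA1 and DEG1 fell. The SE and p of a slope come from scatter around a straight line over the dose steps, with no replicate culture at any dose. CIN1 fell by 1.97 log2 per step (SE 0.0635, adjusted p = 0.00129, limma), IRA2 fell by 1.46 (SE 0.129, adjusted p = 0.0154, limma), and IRA1 fell by 1.02 (SE 0.120, adjusted p = 0.0420, limma). The 1 strain with a higher slope, RPL37A, belongs to the strains high on both, and it stood at -1.38 log2 without arsenite and 0.53 at 400 µM. Of the 27 members called in all, 0 were called with a trended and robust prior, under which 401 of all strains had a lower and 193 a higher slope at an unadjusted p under 0.05, so that the calls depend on the prior. Leaving out the 200 µM array raised the calls among members to 53, and leaving out the 400, 0 or 100 µM array lowered them to 3, 4 or 12.

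**Figure D5:**
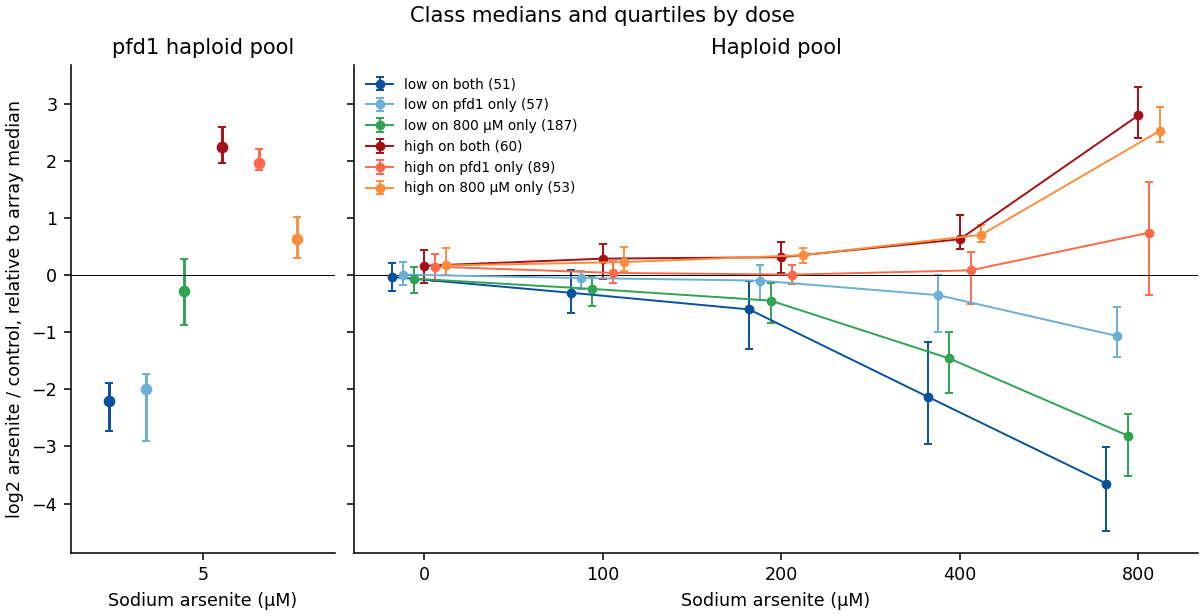
Points are class medians of the log2 values and bars run from the lower to the upper quartile, for the pfd1 pool at 5 µM (left) and the plain haploid pool at 0 to 800 µM, with equal spacing between doses (right); the number of strains per class is in brackets. At 400 µM the median of the strains low on both arrays is -2.13, of those low at 800 µM only -1.46, and of those low on the pfd1 array only -0.35.

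At 400 µM, where 5.26% of all strains were low and 0.744% high, 34 of 48 measured strains low on both arrays were low, with a class median of -2.13 log2. So were 96 of 178 strains low at 800 µM only (median -1.46) and 8 of 55 low on the pfd1 array only (median -0.35). Of the strains high on both, 7 of 60 were high at 400 µM, with a median of 0.63 log2. In heterozygous diploids at 450 µM, which keep 1 copy of each gene, 1.69% of all strains were low and 1.05% high. There 9 of 51 strains low on both arrays were low, 10 of 187 low at 800 µM only and 5 of 56 low on the pfd1 array only, and 6 of 60 strains high on both were high.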

How the data were processed

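Tag DNA of paired arsenite and control cultures was measured on 2-colour arrays, 1 array per pool and dose. The deposited values are log ratios per tag probe, taken as log2; for the base, direction, scanner, normalisation and filters, nothing is given in the sources used here. Of 22575 probes, 9727 had a value and 8765 of these name 1 gene in the platform annotation. Signs were turned to arsenite over control, tags were averaged per strain, and each array was centred on its median and divided by its robust standard deviation (1.4826 times the median absolute deviation). Thresholds were 3 and, for "near the median", 1. Slopes used limma 3.58.1 (R 4.3.3), and Python 3.11.15 and pandas 2.3.3 did the rest. In simulated data with independent normal noise, 62% of slopes of 0.5 and 88% of slopes of 1 were called. There were 3 false calls among 3576 strains without a slope. The simulation used the default prior, so it cannot speak to how the real calls depend on the prior or on single arrays. Gene symbols and neighbours come from RefSeq R64. The members and the 50 gene lists were chosen with earlier results of these data known. Named strains had 2 tags on both arrays and were the up to 10 most extreme of each class, near the median on the other array for the classes of 1 array. Added to them were list members and the 3 strains at either side of each low threshold; other strains were named after their values were seen. The alternatives tried were other thresholds, scalings, tag sets, normalisations and doses. Tag errors are robust and cover the arrays only.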

Additional observations from a re-analysis of the deposited data

Results flagged for a closer look

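The 10 strains past the thresholds on opposite sides stood on one side of the median in the pfd1 pool at 5 µM and on the other in the plain haploid pool at 800 µM. The difference was not tested, since each side is 1 array. Values below are scaled differences, the pfd1 value minus the 800 µM value in robust standard deviations. The strains were chosen by these same values, so that the differences are large follows from the choice. The tags give such a difference an error of 0.637 with 2 tags on each array and 0.900 with 1. Neither error is for IRA2, PEX10 and URA5, which had 2 tags on the pfd1 array and 1 at 800 µM. The strains high in the pfd1 pool were IRA2 with 11.5, IRA1 with 11.3, PEX10 with 8.52, ITR1 with 8.0, GPB2 with 7.91, DEG1 with 7.76 and BCK2 with 6.77. Those low in the pfd1 pool were URA5 with -11.9, SKY1 with -7.81 and ALF1 with -7.14. IRA2 stayed on opposite sides under 11 of the 11 other settings that gave it a value, URA5 under 8 of 10, ALF1 under 8 of 12, SKY1 under 7 of 11, IRA1, ITR1 and BCK2 under 8 of 13, PEX10 and GPB2 under 6 of 11, and DEG1 under 6 of 13. These settings reuse the same cultures and are no replicate.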

How the results depend on the processing

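The class counts depend on the threshold and the scale. Counts below are in the order low on both, low on the pfd1 array only, low at 800 µM only, high on both, high on the pfd1 array only, high at 800 µM only and opposite sides. They were 113, 117, 312, 129, 139, 127 and 32 at 2 robust standard deviations and 21, 31, 112, 21, 49, 24 and 1 at 4. They were 178, 116, 471, 195, 125, 310 and 73 with the robust standard deviation of the haploid array without arsenite, and 32, 26, 236, 44, 43, 88 and 3 at 2 log2 without scaling. With at least 2 tags on both arrays, which leaves fewer strains, they were 23, 29, 80, 23, 40, 31 and 5. The first tag set alone gave 26 low on both, 27 high on both, 43 high on the pfd1 array only and 2 on opposite sides. The second gave 35 low on the pfd1 array only, 57 high on it only and 5 on opposite sides. Quantile normalisation gave 118 low on the pfd1 array only and 121 low at 800 µM only. The 400 µM array in place of 800 µM gave 11 high on both, 147 high on the pfd1 array only and 23 high at the haploid dose only. Subtracting the values without arsenite gave 88 high at 800 µM only, and a demand that every tag be past the threshold gave 5 on opposite sides. Where the construction does not show it, the cause was not tested. The other 46 results of this kind stayed within 1.5 times the main count. These include leaving out the pyrimidine strains or the strains shifted without arsenite, both chosen after seeing the data. Slope calls among members were 27, between 3 and 53 when 1 array was left out and 0 with a trended and robust prior. The fit to the 0 to 200 µM arrays is the same as leaving out the 400 µM array, with 3 calls. No paired analysis was possible because each pool and dose has 1 array. The number of arrays is a limit on the precision.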

Other observations

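Some complexes were noticed after their values were seen, and their values are given here as a description. All 3 strains of the N-terminal acetyltransferase NatC were low on both arrays, at -2.25, -1.99 and -1.69 log2 on the pfd1 array and at -2.49, -4.50 and -3.25 log2 at 800 µM for MAK3, MAK10 and MAK31. The pfd1 tags of MAK31 were -0.96 and -2.43. CTK1 and CTK3, of a kinase that phosphorylates RNA polymerase II, gave -3.03 and -2.69 log2 on the pfd1 array and -0.56 and -1.82 log2 at 800 µM, and CTK1 stood at -1.88 log2 on the haploid array without arsenite. UBP3, the deubiquitinase, gave 2.90 log2 on the pfd1 array and -0.79 at 800 µM, beside its cofactor BRE5.

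Peroxins, which build peroxisomes and import their proteins, were low at 800 µM in 10 of 25 strains and on the pfd1 array in 0, where 3 were high. PEX13 and PEX14, of the docking complex, gave 0.18 and 0.39 log2 on the pfd1 array and -3.71 and -3.46 log2 at 800 µM, and PEX5, the import receptor, gave 0.86 and -2.82 log2. Of the nonessential NuA4 subunits, EAF1, EAF3, EAF5 and EAF7 were high at 800 µM, between 2.48 and 2.95 log2, and lay between -1.09 and 0.78 log2 on the pfd1 array, while YAF9 was low on the pfd1 array.

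A further 669 strains had a value on the pfd1 array and none at 800 µM. CPA1, a subunit of the carbamoyl phosphate synthetase for arginine, was one of them and gave 5.01 log2, whereas URA1, URA2, URA4 and URA5 were low there.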
